A study of Mus musculus with 10 samples.

Results

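Interferon-stimulated genes are the genes that a cell switches on when an interferon reaches it. Type I interferons bind the receptor pair Ifnar1 and Ifnar2, whose kinases Jak1 and Tyk2 activate Stat2. A complex that holds Stat2 and Irf9 then binds a DNA element called the interferon-stimulated response element (ISRE), and another element, the gamma-activated site (GAS), serves the response to interferon gamma. Most of the induced proteins act against viruses, and many are also present at low levels in tissue that is not infected. Cytosolic DNA, which can follow DNA damage, is read by cGAS and STING, which feed the same pathway.

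The set described here holds 31 genes, chosen by name from the type I interferon response, its sensors and its transcription factors. All 31 were among the 16440 genes listed in each of the 3 tables of mouse heart RNA. The hearts came from 3 WT, 3 Ft1ko and 4 Ft1sm22ko mice of 1 week of age. Ft1 is the mouse name of AKTIP (gene Aktip), a factor bound up with telomere integrity. Ft1ko mice descend from Ft1 floxed (Ft1F) animals crossed with CMV-cre mice and lack Ft1 in the whole body. Ft1sm22ko mice were made with sm22-cre, driven by the smooth muscle gene Tagln. The paper relates the partial loss of Ft1 in these hearts to their mix of cells with and without sm22. Which cells keep the gene was not tested here. The labels give no further alleles for WT. The study compared loss of Ft1 in all cells with loss aimed at vascular smooth muscle.

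Each deposited table gives, for a gene, 1 mean normalized count over the hearts of a pair of groups. The mean of each group was solved from the 3 pair means, and it is given below in normalized counts on the scale of the table of WT and Ft1ko. The 3 tables were normalized separately, so that every group mean is a level set across tables. No value of a single heart was used, hence no SD, no test and no p-value can be given, and 1 heart could set the mean of its group. The only error shown is the range of a value over 3 other scales between the tables, called the scale range. A gene was counted as higher or lower where its log2 ratio of group means, with 1 added to each mean, was at least 1 in size and its mean over the 3 groups was at least 10. Ratios of the mutants to WT share the WT hearts.

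Aktip itself averaged 677 in WT, 162 in Ft1ko and 289 in Ft1sm22ko, with log2 ratios to WT of -2.06 and -1.23. The Ft1ko hearts also stood apart in markers of other tissues. All 9 thymocyte and T cell markers that passed the filter were higher in Ft1ko than in WT (100%, against 19.4% of all genes). Rag2, with means of 2.53 in WT and 1.06 in Ft1sm22ko, passed only through Ft1ko, so its call carries no weight as a count. The median log2 ratio of the 9 was 4.69, and their summed mean was 163 in WT, 5631 in Ft1ko and 76.2 in Ft1sm22ko. All 8 lung epithelium markers were higher too (100%, against 19.4% of all genes), with a median of 6.41. Among 8 cardiomyocyte markers, 7 lay below WT past the limit in Ft1ko (87.5%, against 18.4% of all genes, median -2.58). In Ft1sm22ko 5 did (62.5%, against 11.3%, median -1.40). Myh7 was higher in both (12.5%, against 19.4% of all genes in Ft1ko and 12.4% in Ft1sm22ko). The study's methods give the animals as male. Xist, the RNA of the inactive X chromosome, averaged 4392 in WT and 4313 in Ft1sm22ko and solved to below 0 in Ft1ko, while the Y-linked Ddx3y averaged 508, 705 and 150 in WT, Ft1ko and Ft1sm22ko. The part of these differences in the values below was not tested. In bulk tissue, fewer cells of a type and less RNA per cell cannot be told apart.

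Promoter windows of 25 members were found in RefSeq (GRCm38.p6), each from 250 bases before to 50 bases after a start. The ISRE core was searched as GAAANNGAAA on both strands. It was present in windows of 13 of these 25 members and in 3.44% of all 32851 windows, or 3.99% of 27025 genes. The windows below are shown to be read side by side. They come from members far below WT (Stat2, Ifit1, Ifit3, Bst2, Gbp3) and 2 within the limit in every comparison (Isg15, Rsad2). The window of Oas3, above WT in Ft1ko but past the filter only through that group, is also given. The windows cover upstream sequence, are written on the strand of the gene, and carry 1 match in capitals. A match in TTTC letters is the core read on the other strand.
Stat2: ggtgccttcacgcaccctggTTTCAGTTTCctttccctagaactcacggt
Ifit1: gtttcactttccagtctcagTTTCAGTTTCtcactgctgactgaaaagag
Ifit3: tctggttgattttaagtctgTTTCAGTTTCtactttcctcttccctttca
Bst2: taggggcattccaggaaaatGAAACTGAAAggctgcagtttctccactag
Gbp3: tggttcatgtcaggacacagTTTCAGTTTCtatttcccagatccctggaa
Isg15: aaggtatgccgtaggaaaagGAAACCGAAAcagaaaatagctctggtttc
Rsad2: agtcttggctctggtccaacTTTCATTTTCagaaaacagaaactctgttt
Oas3: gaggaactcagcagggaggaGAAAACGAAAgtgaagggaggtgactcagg

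The windows lie at chr10:128270256-128270305 (Stat2), chr19:34640784-34640833 (Ifit1), chr19:34583387-34583436 (Ifit3) and chr3:142559979-142560028 (Gbp3) on the plus strand. Those of Bst2 (chr8:71537567-71537616), Isg15 (chr4:156200861-156200910), Rsad2 (chr12:26456543-26456592) and Oas3 (chr5:120777705-120777754) lie on the minus strand. Isg15 held 3 overlapping matches, and Ifit1, Ifit3, Bst2, Gbp3 and Oas1a held 2 each. Gbp2, Stat2, Rsad2 and Oas3 held 1 match upstream of the start, and the single matches of Ifih1, Ddx58 and Eif2ak2 lay after it. No match was found in these windows for Irf1, Irf7, Irf9, Ifit2, Oasl2, Cmpk2, Xaf1, Ifi44, Ifi35, Trim25, Herc6 and Dtx3l. The GAS core, searched as TTCNNNGAA, was in windows of 6 of the 25 members, against 8.3% of all windows and 9.55% of all genes. One of these is Irf1, which is known to be induced by interferon gamma, and its match is in capitals.
Irf1: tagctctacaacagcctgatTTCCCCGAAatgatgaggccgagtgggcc

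The Irf1 window lies at chr11:53769904-53769952 on the plus strand. The other matches to the GAS core belonged to Ifit2, Oas1a, Bst2, Eif2ak2 and Ifi35. Mx1, Mx2, Oas2, Rtp4, Usp18 and Parp9 were not searched.

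**Figure D1:**
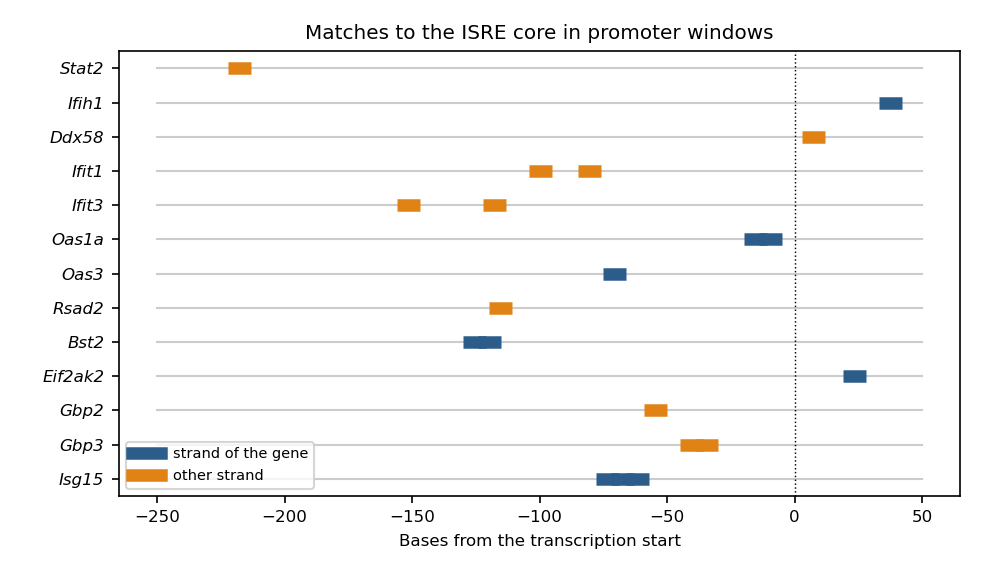
Position of each match to the ISRE core in the promoter windows of 13 members, in bases from the transcription start (x axis), with blue bars for matches on the strand of the gene and orange bars for the other strand. Matches lay between 222 bases before the start (Stat2) and 42 bases after it (Ifih1).

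Taken as a set, the interferon-stimulated genes were at their highest in WT hearts. Of the 31 members 24 had their highest group mean in WT and 23 had their lowest in Ft1sm22ko, and the commonest order, Ft1sm22ko below Ft1ko below WT, was that of 19 members. Over the 3 other scales the highest mean stayed in WT for 24 members, the lowest stayed in Ft1sm22ko for 16, and 13 kept the whole order. How many of all genes hold these orders was not counted, so these counts describe the members alone. The summed mean of the 31 members was 7276 in WT, 4640 in Ft1ko and 3856 in Ft1sm22ko. The member Mx1, with a mean of 8.08 over the groups, did not pass the filter, and the counts below are over the other 30.

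In Ft1ko hearts 8 of 30 members (26.7%) were lower than in WT, against 18.4% of all 14114 genes that passed, and 1 member was higher (3.33%), against 19.4%. The lower members were Stat2, Ifit3, Mx2, Oas2, Bst2, Gbp3, Xaf1 and Ifi44, and the higher member was Oas3, which passed the filter only through its mean in Ft1ko, so that its call carries no weight as a count. The median log2 ratio of the members was -0.78, that of all genes -0.07. The members thus lay below the middle of all genes, and the share of lower members exceeded the background by less than it did in Ft1sm22ko, where both are given next.

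In Ft1sm22ko hearts 14 of 30 members (46.7%) were lower than in WT, against 11.3% of all genes, and no member was higher, against 12.4%. The lower members were Stat2, Irf7, Ifit1, Ifit3, Mx2, Oas2, Oasl2, Bst2, Gbp3, Xaf1, Ifi44, Ifi35, Rtp4 and Herc6. The median log2 ratio was -0.98 over the members and -0.03 over all genes. The members just inside the limit were Herc6 at -1.09 and Ifi35 at -1.05, and those just outside it were Isg15 at -0.98 and Irf1 at -0.97.

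Between the mutants 3 of 30 members (10%) were lower in Ft1sm22ko than in Ft1ko, against 10.4% of all genes, and none was higher, against 7.4%. The 3 were Oas3, which passed the filter only through Ft1ko, Oasl2 and Usp18. The share of lower members was close to that of all genes only with Oas3 counted, whose call carries no weight. Usp18 crossed the limit within its scale range (-1.06 to -0.88). The median log2 ratio was -0.39 over the members and 0.04 over all genes, so that the members leaned lower in Ft1sm22ko by less than the limit used here.

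**Figure D2:**
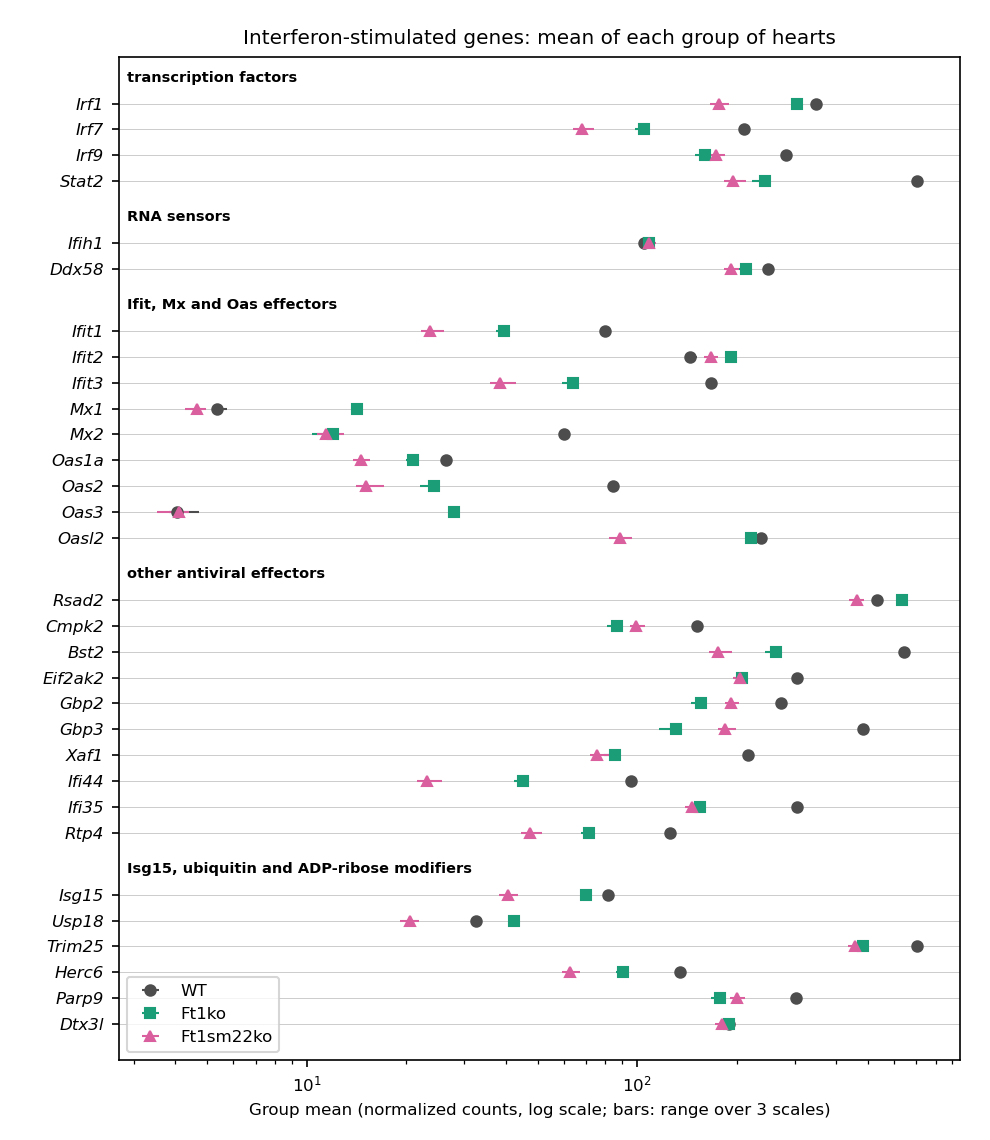
Group mean of each of the 31 members in normalized counts (x axis, log scale) for WT (grey circles), Ft1ko (green squares) and Ft1sm22ko (pink triangles), with bars for the scale range and the members ordered by role. For 24 members the WT mean lies furthest right, while Oas3, at 4.04, 28.0 and 4.10 in WT, Ft1ko and Ft1sm22ko, and Mx1 are highest in Ft1ko.

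The 4 transcription factors of the response had means below WT in both mutants, past the limit for Stat2 in both and for Irf7 in Ft1sm22ko. Stat2, a part of the ISRE-binding complex, averaged 702 in WT, 243 in Ft1ko and 195 in Ft1sm22ko. This was 2.88-fold lower in Ft1ko (log2 ratio -1.53, scale range -1.69 to -1.47) and 3.60-fold lower in Ft1sm22ko (-1.85, -1.95 to -1.75). The mutants lay close to each other, at -0.32 for Ft1sm22ko over Ft1ko.

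Irf7, which drives the production of type I interferon itself, averaged 211 in WT, 105 in Ft1ko and 68.1 in Ft1sm22ko. Its log2 ratio was -1.62 in Ft1sm22ko (scale range -1.73 to -1.53), and in Ft1ko it lay at the limit without passing it (-1.13 to -0.95). Irf9, the DNA-binding part of the complex, averaged 283, 160 and 174 in WT, Ft1ko and Ft1sm22ko. Its log2 ratios to WT were -0.81 and -0.70, past the limit in neither mutant.

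Irf1, a factor shared with the interferon gamma response, behaved differently. It averaged 348 in WT and 305 in Ft1ko, a log2 ratio of -0.19, but 177 in Ft1sm22ko, a log2 ratio to WT of -0.97. The Irf1 mean was thus close to WT in Ft1ko and below it in Ft1sm22ko, short of the limit in both.

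The RNA sensors were nearly level across the groups. Ifih1 (MDA5), which binds long double-stranded RNA, averaged 105 in WT, 109 in Ft1ko and 109 in Ft1sm22ko, and the sign of each ratio depended on the scale. Ddx58 (RIG-I), which reads RNA ends, averaged 248, 213 and 193, with log2 ratios to WT of -0.22 in Ft1ko and -0.36 in Ft1sm22ko.

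The Ifit, Mx and Oas effectors held the members furthest from WT in each direction, though the upper one, Oas3, passed the filter only through Ft1ko. Of the 8 that passed the filter 3 (37.5%, against 18.4% of all genes) were lower in Ft1ko. Oas3 alone was higher there (12.5%, against 19.4%), and 5 were lower in Ft1sm22ko (62.5%, against 11.3%). The medians were -0.66 and -1.56.

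The Ifit proteins bind viral RNA and block its translation. Ifit3 averaged 167 in WT, 63.8 in Ft1ko and 38.5 in Ft1sm22ko, with log2 ratios to WT of -1.38 (scale range -1.52 to -1.33) and -2.09 (-2.20 to -1.98). Ifit1 averaged 80.1, 39.6 and 23.6, with ratios of -0.998 and -1.72, the former just outside the limit. Ifit2, which lies beside Ifit3 on chromosome 19 with no coding gene between them, went the other way. It averaged 144 in WT, 192 in Ft1ko and 167 in Ft1sm22ko, and its ratios to WT of 0.41 and 0.21 stayed above 0 at every scale and below the limit. Ifit1 overlaps Ifit1bl1, and Ifit3 has a close copy, Ifit3b, so that reads could be split between these genes in the authors' counting.

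Mx1 and Mx2 are dynamin-like GTPases that trap viral particles. Mx2 averaged 60.2 in WT, 12.0 in Ft1ko and 11.5 in Ft1sm22ko, which was 4.71-fold and 4.92-fold lower (log2 ratios -2.24 and -2.30). Mx1 was near the bottom of the measured range, at 5.34, 14.2 and 4.66. The Mx1 mean was thus highest in Ft1ko, where Mx2 was low.

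The Oas enzymes answer double-stranded RNA by making oligoadenylates, which activate RNase L. Oas2 averaged 84.3 in WT, 24.3 in Ft1ko and 15.1 in Ft1sm22ko, and its log2 ratio of -2.40 in Ft1sm22ko (scale range -2.51 to -2.27) was the lowest of the set. Its neighbour Oas3, with no coding gene between them, averaged 4.04, 28.0 and 4.10. Oas3 was 5.74-fold higher in Ft1ko than in WT (log2 ratio 2.52, scale range 2.30 to 2.60) and 5.68-fold lower in Ft1sm22ko than in Ft1ko. With the other means under 10, Oas3 passed the filter through Ft1ko alone, the group where it is high. The Ft1ko mean lay below WT for Oas2 and above it for the adjacent Oas3, but with Oas3 selected in this way the contrast carries no weight.

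Oas1a averaged 26.5 in WT, 20.9 in Ft1ko and 14.6 in Ft1sm22ko, past the limit in no comparison. Oasl2, an Oas-like protein, averaged 237 in WT and 221 in Ft1ko, and 88.9 in Ft1sm22ko. Its log2 ratio was -0.10 in Ft1ko but -1.41 in Ft1sm22ko (scale range -1.55 to -1.33). Oasl2 was hence one of the 3 members for which the mutants were apart past the limit, at -1.31 for Ft1sm22ko over Ft1ko (-1.38 to -1.14).

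Of the 10 other antiviral effectors 9 had means below WT in Ft1ko, 4 of them past the limit (40%, against 18.4% of all genes). In Ft1sm22ko 10 had means below WT, 6 of them past the limit (60%, against 11.3%). The share of all genes with a mean below WT was not counted. Bst2 (tetherin), which holds budding virus at the membrane, averaged 642 in WT, 263 in Ft1ko and 176 in Ft1sm22ko, with log2 ratios of -1.29 (scale range -1.43 to -1.24) and -1.86 (-1.97 to -1.76). Gbp3, a guanylate-binding GTPase, averaged 482, 131 and 185 and was the clearest member with its lowest mean in Ft1ko (log2 ratio -1.87, against -1.38 in Ft1sm22ko). Gbp2, of the same family and 1 coding gene away, averaged 273, 156 and 192, in the same order but past the limit in neither mutant.

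Xaf1, a partner of the apoptosis inhibitor XIAP, averaged 216 in WT, 85.9 in Ft1ko and 75.8 in Ft1sm22ko, with log2 ratios of -1.32 and -1.50. Ifi44 averaged 96.0, 45.0 and 23.1, with ratios of -1.08 and -2.01. Ifi35 averaged 304, 155 and 147, with ratios of -0.97 and -1.05. Thus Xaf1 and Ifi35 were at similar levels in both mutants and the Ifi44 mean was lowest in Ft1sm22ko, at a log2 ratio to Ft1ko of -0.93, just short of the limit.

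Rtp4 averaged 126 in WT, 71.3 in Ft1ko and 47.4 in Ft1sm22ko, with log2 ratios to WT of -0.81 and -1.39. Rtp4 overlaps Masp1, Stat2 overlaps Apof and Eif2ak2 overlaps Gm26637 in the RefSeq gene table, and, although the libraries were stranded (fr-secondstrand per the labels), the strand setting of the counting is not given in the sources used here. Eif2ak2 (PKR), the kinase that stops translation on double-stranded RNA, averaged 304, 207 and 204, past the limit in neither mutant.

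Rsad2 (viperin) and Cmpk2, a nucleotide kinase that supplies it, lie side by side on chromosome 12. Rsad2 averaged 530 in WT, 634 in Ft1ko and 462 in Ft1sm22ko, and Cmpk2 152, 86.9 and 99.5. The Rsad2 log2 ratio in Ft1ko was 0.26 (scale range 0.15 to 0.32) and that of Cmpk2 -0.80 (-0.95 to -0.74). These adjacent genes lay on opposite sides of WT in Ft1ko.

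The Isg15 and modifier group was the closest to WT after the RNA sensors. No member was past the limit in Ft1ko, against 18.4% of all genes lower and 19.4% higher. In Ft1sm22ko 1 of 6, Herc6, was lower (16.7%, against 11.3%). Isg15, the ubiquitin-like protein that is attached to other proteins, averaged 81.6 in WT, 69.9 in Ft1ko and 40.8 in Ft1sm22ko. Herc6, the ligase that attaches it in mice, averaged 134, 90.7 and 62.7, with log2 ratios of -0.56 and -1.09. Usp18, which removes Isg15 and restrains the interferon receptor, averaged 32.6, 42.3 and 20.5. Usp18 was 2.01-fold lower in Ft1sm22ko than in Ft1ko (log2 ratio -1.01), a value that crossed the limit within its scale range of -1.06 to -0.88.

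Trim25, a ligase of the RIG-I pathway, averaged 703 in WT, 482 in Ft1ko and 456 in Ft1sm22ko. Parp9 and Dtx3l encode partners of 1 complex that adds ADP-ribose and ubiquitin, and the genes overlap each other. Parp9 averaged 302, 178 and 200, while Dtx3l averaged 189, 189 and 181. Dtx3l was thus level across the groups, whereas the log2 ratios of Parp9 to WT were -0.76 and -0.59.

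**Figure D3:**
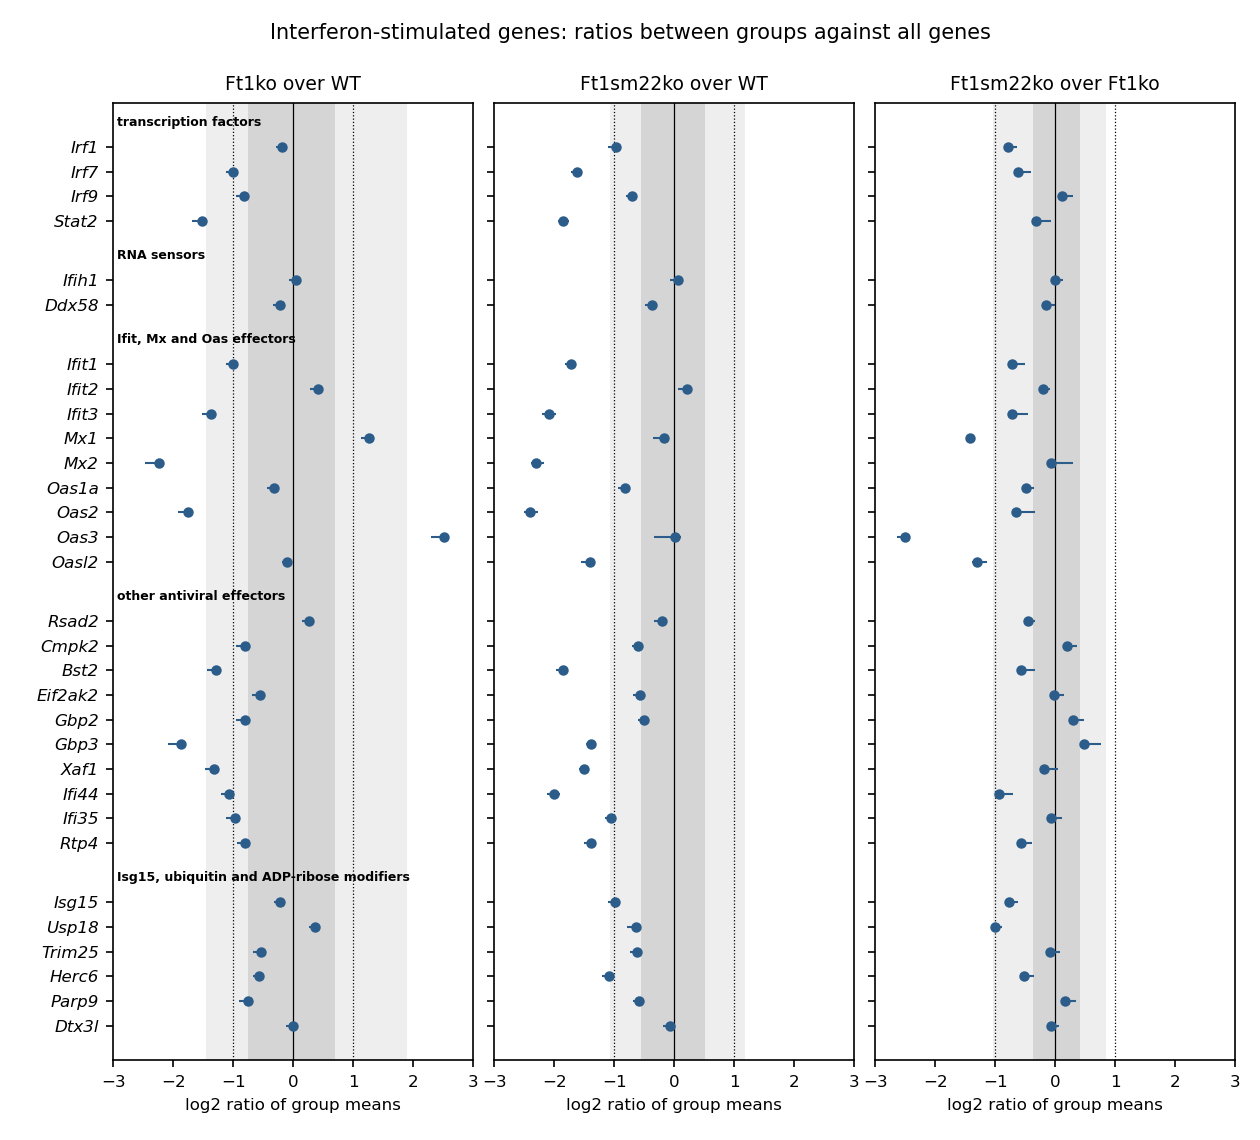
log2 ratio of group means (x axis) of each member in the 3 comparisons, with bars for the scale range, dark grey for the middle 50% and light grey for the middle 80% of all genes that passed the filter, and dotted lines at the limit of 2-fold. In Ft1sm22ko over WT the members lie between -2.40 (Oas2) and 0.21 (Ifit2). In Ft1ko over WT Oas3, which passed the filter only through Ft1ko, stands alone at 2.52.

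Over the 3 other scales 24 of the 31 members stayed below 0 in Ft1ko over WT and 5 stayed above it. In Ft1sm22ko over WT 28 stayed below 0 and 1 above. In Ft1sm22ko over Ft1ko 18 stayed below 0 and 5 above, and the sign of the other 8 depended on the scale, so that the order of the mutants cannot be given for these members. They are Ifih1, Ddx58, Mx2, Xaf1, Ifi35, Eif2ak2, Trim25 and Dtx3l. The share of all genes below 0 was not counted, and these sign counts include Mx1, which did not pass the filter.

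The ratios of members with and without a match to the ISRE core overlapped, and their difference was not tested. In Ft1sm22ko over WT the 13 with a match had a median log2 ratio of -0.82, from -2.09 to 0.06, and the 12 without had a median of -1.01, from -2.01 to 0.21. In Ft1ko over WT the medians were -0.55 and -0.68. The windows of Stat2, lower in Ft1ko, and of Oas3, which passed the filter only through Ft1ko, both held the core. With Oas3 selected in this way the pair carries no weight as a contrast.

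Upstream of the members, no transcript of 13 interferon ligands searched for by name was listed in any table. The receptors were all measured. Ifnar1 averaged 822 in WT, 706 in Ft1ko and 810 in Ft1sm22ko, and Ifnar2 506, 352 and 464, past the limit in no comparison. In Ft1sm22ko over WT none of 11 receptor, kinase and Stat genes was past the limit, against 11.3% of all genes lower and 12.4% higher. In Ft1ko 3 of the 11 (27.3%) were lower than in WT, against 18.4% of all genes. The 3 were Il10rb (log2 ratio -1.72) and Ifnlr1 (-1.28), which form the interferon lambda receptor, and Ifngr2 (-1.07) of the interferon gamma receptor. Ifngr2 and Il10rb were higher in Ft1sm22ko than in Ft1ko, by 1.20 and 1.07.

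Of 20 nucleic acid sensing genes outside the set that passed the filter, 1 was higher (5%, against 19.4% of all genes) and 2 were lower in Ft1ko than in WT (10%, against 18.4%), and 3 were lower in Ft1sm22ko (15%, against 11.3%), of which Zbp1 and Dhx58 are named after their values were seen. cGAS, listed as Mb21d1, averaged 38.8 in WT, 36.3 in Ft1ko and 45.8 in Ft1sm22ko. STING, listed as Tmem173, averaged 93.4, 114 and 132, with log2 ratios to WT of 0.28 and 0.50. Both DNA sensing genes were thus within the limit in each mutant. Mavs, the adaptor of RIG-I and MDA5, averaged 448, 202 and 410 and was lower in Ft1ko (-1.15), and the kinase gene Ikbke was higher there (1.23). Irf3, which starts interferon transcription, averaged 845 in WT, 402 in Ft1ko and 416 in Ft1sm22ko, with ratios of -1.07 and -1.02.

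A further list of 49 interferon-stimulated genes outside the set was measured, of which 48 passed the filter. In Ft1ko 13 were lower than in WT (27.1%, against 18.4% of all genes) and 5 were higher (10.4%, against 19.4%), with a median log2 ratio of -0.47. In Ft1sm22ko 21 were lower (43.8%, against 11.3%) and 2 were higher (4.17%, against 12.4%), with a median of -0.83. The higher genes, named in full after their values were seen, were Ifitm1, Isg20, Ube2l6, Cxcl10 and Ccl5 in Ft1ko and Ifitm1 and Ube2l6 in Ft1sm22ko. With means under 10 in WT and Ft1sm22ko, Cxcl10 and Ccl5 passed the filter through Ft1ko alone, where they are high. The calls of Cxcl10 and Ccl5 thus carry no weight as counts. Between the mutants 11 were lower in Ft1sm22ko (22.9%, against 10.4% of all genes) and 1, Cxcl9, was higher (2.08%, against 7.4%). The 11 include Cxcl10 and Ccl5, whose calls carry no weight here either. In Ft1ko, with the mean over the groups at 50 or more, the values furthest from WT were 3.34 for Ifitm1, a membrane protein against viral entry, -2.31 for Ifi203, and -1.68 for Gbp7. In Ft1sm22ko they were -2.22 for Gbp4, -1.80 for Psmb9 of the immunoproteasome and -1.77 for Tap1, the peptide transporter of antigen presentation.

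Of 10 inhibitors of the pathway 3 (30%), Socs1 (named after its values were seen), Socs3 and Ptpn6, were higher in Ft1ko than in WT, against 19.4% of all genes. None was past the limit in Ft1sm22ko over WT, against 11.3% of all genes lower and 12.4% higher. Socs3, which blocks the Jak kinases, averaged 66.0 in WT, 164 in Ft1ko and 115 in Ft1sm22ko (log2 ratios 1.30 and 0.79). Ptpn6, a phosphatase of blood cells, averaged 110, 259 and 104, so that its mean was high in Ft1ko alone.

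**Figure D4:**
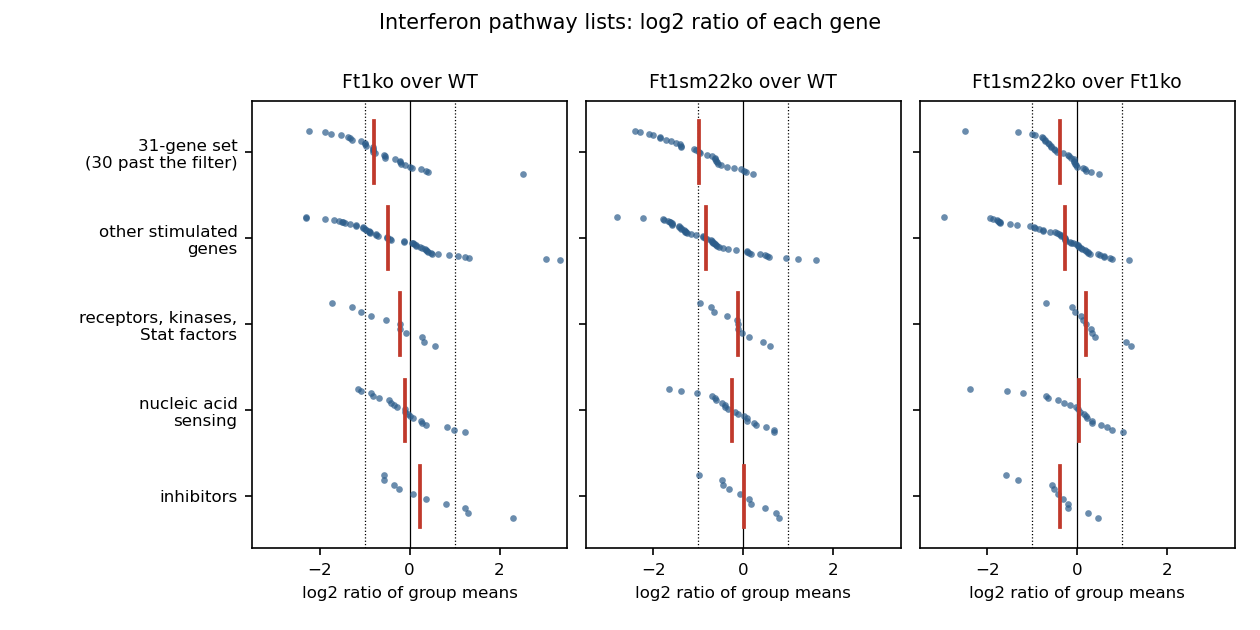
log2 ratio of group means (x axis) of each gene that passed the filter, for the set and for 4 lists of the interferon pathway, with red bars at the median of a list and dotted lines at the limit of 2-fold. The set and the other stimulated genes have medians below 0 in all 3 panels, at -0.98 and -0.83 in Ft1sm22ko over WT.

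Markers of the cells that could carry these transcripts are given beside the members. Of 9 macrophage markers 1, Adgre1, was higher in each mutant than in WT (11.1%, against 19.4% of all genes in Ft1ko and 12.4% in Ft1sm22ko). None was lower, against 18.4% and 11.3%. The macrophage medians were -0.02 and 0.14, and the summed mean was 2280 in WT, 2117 in Ft1ko and 2158 in Ft1sm22ko. Endothelial markers had medians of -0.22 and 0.19. Of 8 endothelial markers 3 (Tie1, Egfl7 and Esam) were lower in Ft1ko than in WT (37.5%, against 18.4% of all genes). In Ft1sm22ko 1 (Egfl7) was lower (12.5%, against 11.3%), and none was higher in either mutant, against 19.4% in Ft1ko and 12.4% in Ft1sm22ko. The macrophage and endothelial medians were closer to 0 than those of the members, and the cardiomyocyte medians further from it. The part of these cells in the member values was not tested.

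All 5 neutrophil markers that passed were higher in Ft1ko than in WT (100%, against 19.4% of all genes). Camp, with means of 9.63 in WT and 3.17 in Ft1sm22ko, passed only through Ft1ko, so its call carries no weight as a count. The neutrophil markers had a summed mean of 192 in WT, 958 in Ft1ko and 355 in Ft1sm22ko, and the lung epithelium markers summed to 886, 48316 and 2593. Single genes carried the Ft1sm22ko sums, Ltf with 295 of the neutrophil sum and Scgb1a1 with 2310 of the lung sum. In Ft1sm22ko over WT 1 neutrophil marker, Ltf, was higher (20%, against 12.4% of all genes). There 3, Camp among them, were lower (60%, against 11.3%), with a median log2 ratio of -1.33. Of the 8 lung markers 3 were higher (37.5%, against 12.4%) and 2 were lower (25%, against 11.3%) in Ft1sm22ko over WT. B cell markers summed to 237, 169 and 104. Of 4 plasmacytoid dendritic cell markers that passed, 2 (Ccr9 and Spib) were higher in Ft1ko than in WT (50%, against 19.4% of all genes). Another, Tcf4, was lower there (25%, against 18.4%). Ccr9, with means of 2.42 in WT and 3.86 in Ft1sm22ko, passed only through Ft1ko, so its call carries no weight as a count. Siglech, the most specific of the list, averaged 0.08, 2.30 and 1.95. Oas3, Mx1, Usp18, Rsad2 and Ifit2, whose means were above WT in Ft1ko, were highest in the same group as the thymocyte, neutrophil and lung markers, and the part of those cells was not tested.

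**Figure D5:**
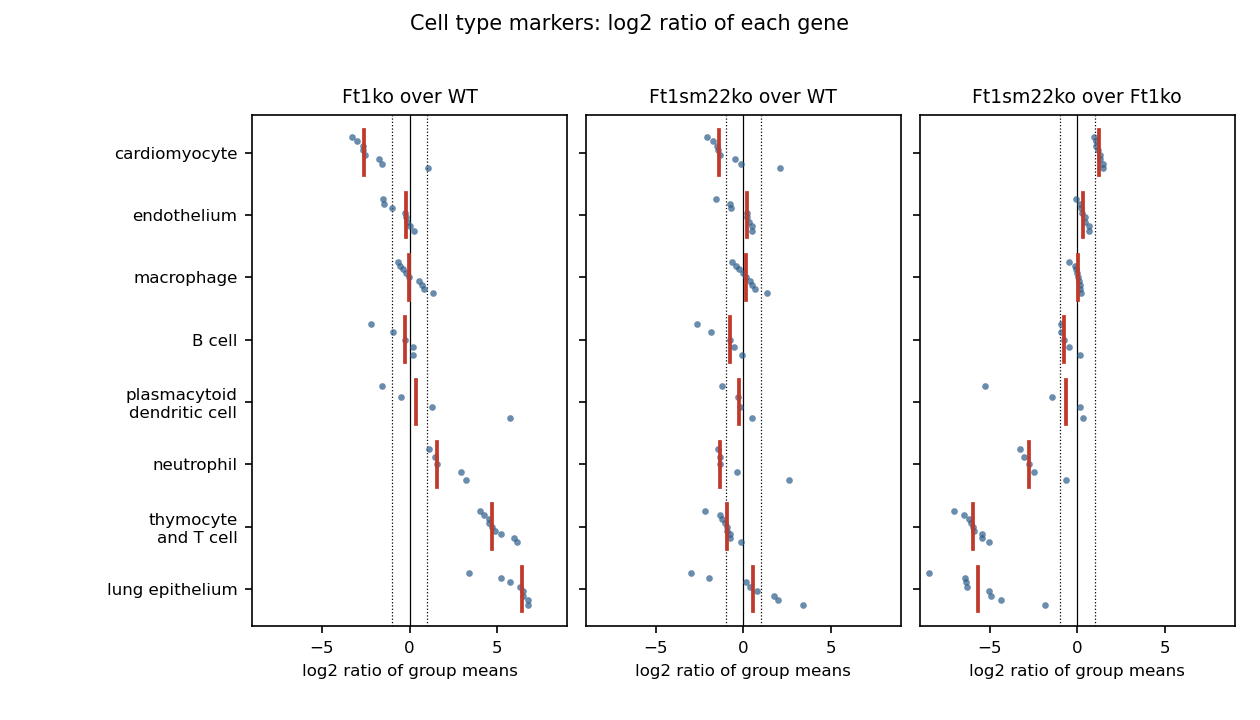
log2 ratio of group means (x axis) of each marker gene that passed the filter in 8 cell type lists, with red bars at the median of a list and dotted lines at the limit of 2-fold. Thymocyte and lung markers lie far above 0 in Ft1ko over WT, with medians of 4.69 and 6.41. Macrophage and endothelial markers have medians of -0.02 and -0.22 there, with 3 of 8 endothelial markers lower past the limit (37.5%, against 18.4% of all genes).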

How the data were processed

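RNA of 10 hearts of 1 week old mice was sequenced. According to the paper's methods, the authors aligned reads with STAR to a reference named hg38, although the gene names are mouse symbols, and counted them with HTSeq. The authors' records also name StringTie, with no versions. The signal used here, as deposited, averages each gene's counts over the hearts of a pair of groups after the authors scaled them by DESeq2 size factors. The other columns hold the authors' own comparison (fold change, its error, statistic, p-values) and were not used. Depth per library is unknown.

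Group means were solved by weighting the 3 pair means by 3, 3 and 4 hearts. The scale between tables was set on genes listed in exactly 2 tables (387 for Ft1ko, 31 for WT, 428 for Ft1sm22ko). They were taken to be made in 1 group only, which was not tested. The 3 classes disagreed by -0.08 on the log2 scale around the 3 tables. Each of the 3 other scales left out 1 of these classes and was added after the data were seen. The solution was tested on simulated data in which these genes were set to 0 in the other groups, so the simulation could not test that assumption. No member, and 5 of 14114 genes, had a solved mean below 0. A pseudocount of 1, a minimum mean of 10 and a 2-fold limit were used. Tools were python 3.11.15, numpy 2.4.6, pandas 2.3.3 and matplotlib 3.10.9.

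All members were named, Aktip, Ifnar1, Ifnar2, Mavs, Mb21d1 and Tmem173 whatever their value, and of other pathway lists up to 3 genes per comparison past 2-fold with a mean of at least 50. One gene of the naming rule is not reported here. Members and lists were chosen with earlier results of these data known. Alternatives were other scales, pseudocounts, filters, centring and folds.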

Additional observations from a re-analysis of the deposited data

How the results depend on the processing

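No paired analysis was possible because the tables give no values per heart, and leaving out each heart was not run for the same reason. No member count or median turned its direction under any alternative. Under a scale that set the median of genes with a mean of at least 100 to 0, the all-gene median of Ft1ko over WT moved from -0.07 to 0.14, the member median went to -0.58, those of Ft1sm22ko over WT and over Ft1ko to -0.91 and -0.52, and Aktip to -1.80 in Ft1ko over WT and 0.59 in Ft1sm22ko over Ft1ko. With genes of at least 10 these were -0.71 and -0.44 for the members of Ft1ko over WT and Ft1sm22ko over Ft1ko, and -1.97 and 0.75 for Aktip. Centring gave -0.71 and -0.43 in the same comparisons. A pseudocount of 10 gave -0.89 in Ft1sm22ko over WT. Without a filter 2 members were higher in Ft1ko, and the Ft1sm22ko over Ft1ko median was -0.46. With a mean of at least 100, which only 19 members have, none was higher and 4 lower in Ft1ko, 7 were lower in Ft1sm22ko (median -0.62), and 1 was lower in Ft1sm22ko over Ft1ko (median -0.080). At a fold of 1.5, 16 members were lower in Ft1ko and 22 in Ft1sm22ko than in WT, and 10 were lower in Ft1sm22ko than in Ft1ko. Shares of all genes past the limit were counted only with the settings of the Results. Member counts under the alternatives therefore have no background and describe the members alone. Of values within 1.5 times or within the scale range, the lower members of Ft1ko over WT numbered 11 without Ft1ko-only genes, 11 without WT-only genes and 10 at a pseudocount of 0.5, and the Ft1sm22ko over Ft1ko median was -0.21 without WT-only genes. Of single calls, a pseudocount of 10 lost Herc6 in Ft1sm22ko, Ifi44 in Ft1ko and Usp18 between mutants, the scale on genes of at least 100 lost Ifi44 in Ft1ko, and the scale without WT-only genes lost Ifi35 in Ft1sm22ko and Usp18 between mutants. The cause was not tested. The spread between hearts, which would bound each value, was not analysed here.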

Other observations

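Among the other interferon-stimulated genes, those of antigen presentation on MHC class I are given here as values. They were picked after their values were seen, so they form no fixed list and were not tested. Nlrc5, their transcriptional activator, averaged 77.3 in WT, 41.5 in Ft1ko and 10.1 in Ft1sm22ko (log2 ratio -2.81 in Ft1sm22ko over WT). The peptide transporter genes Tap1 and Tap2 had log2 ratios of -1.77 and -1.63 in Ft1sm22ko over WT and of -0.43 and -0.13 in Ft1ko over WT. The immunoproteasome genes differed from each other. Psmb8 averaged 286, 373 and 109 and Psmb9 143, 150 and 40.5 in WT, Ft1ko and Ft1sm22ko, both lowest in Ft1sm22ko, while Psmb10 averaged 722, 290 and 414 and was lowest in Ft1ko. Of the class I chains, H2-K1 averaged 1295, 1523 and 797, H2-D1 521, 261 and 211, and B2m 1711, 2076 and 1520. H2-K1 and B2m were within the limit in every comparison, and H2-D1 was past it only in Ft1sm22ko over WT (-1.30).

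3 further genes were also picked after their values were seen. Cxcl10, a chemokine gene, averaged 4.62 in WT, 45.1 in Ft1ko and 4.92 in Ft1sm22ko, and passed the filter only through Ft1ko. The related Cxcl9 went the other way, at 76.8, 14.8 and 33.9. Socs1, an inhibitor of Jak kinases, averaged 15.5, 80.3 and 26.2.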
